A study of Mus musculus with 12 samples.

Results

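The regions described here were open in conventional CD4+ T cells (Tconv) and not in regulatory T cells (Treg) of wild-type (WT) mice, as judged by ATAC-seq peaks. ATAC-seq marks open chromatin by where the transposase Tn5 can cut DNA. Overlapping or touching peaks of all 12 deposited peak lists were merged into 40457 regions. A region was a member when it had a peak in all 3 WT Tconv lists and in none of the 3 WT Treg lists, and 964 regions met this rule. The WT lists chose the members, so WT values, and differences between KO and WT values, are given as a description. Tests used the enhancer-deleted libraries, which took part in setting region boundaries and not in the rule.

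Spleen CD4+ T cells of Foxp3-GFP reporter mice had been sorted by GFP, and each library was made from 100000 nuclei. WT Tconv (GFP-negative) and WT Treg (GFP-positive) came from reporter animals without the deletion. KO Tconv and KO Treg came from animals labelled "Lrrc32+ 70k enhancer KO", which lack an enhancer 70 kb from Lrrc32, the gene for the Treg surface protein GARP. All 4 groups carried the reporter and had 3 libraries each. Neither the animals' age nor their number is in the labels. Libraries of one group may share an animal, and the spread behind the p-values is then technical at least in part. Same-numbered Tconv and Treg libraries may also share an animal, which the main permutation tests do not take into account.

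Regulatory T cells are a CD4+ lineage held in place by the transcription factor Foxp3, and they restrain the responses of conventional T cells. Most open chromatin of a CD4+ T cell is shared by both lineages, and the part that differs lies largely at distal enhancers. No annotation of the files' build (NCBIM37) was used here, so members are given by position (1-based), without gene names or sequence, and the sorted cell types were not checked against marker genes.

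The lists held 21269 to 27605 peaks, except that of KO Treg replicate 2, which held 5262 and is reported apart. Strength was the percentile of a peak's −log10 p within its own list, from 0 (weakest) to 100. Read depth is unknown, and every list starts near a −log10 p of 5, so a region without a peak may be weakly open.

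Members were mostly weak to middling peaks in WT Tconv. Their mean percentile over the 3 WT Tconv lists had a median of 33.3 (interquartile range 22.5 to 46.3), against 63.8 for the 15639 regions with a peak in all 6 WT lists. The members had a median region width of 600.5 bp, and the regions of all 6 WT lists one of 1019 bp. The median member percentile was 32.6, 35.4 and 33.3 in WT Tconv replicates 1, 2 and 3. Just outside the rule, 1031 regions had a peak in 2 of 3 WT Tconv lists and no WT Treg list, with a median percentile of 18.3. Another 643 regions had a peak in all 3 WT Tconv lists and in 1 WT Treg list, with a median of 31.7. Without WT Tconv replicate 3, the smallest of the other 11 lists, 1568 regions met the remaining criteria.

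Most members were open again in KO Tconv and few in KO Treg. A peak was present at 810 members in KO Tconv replicate 1 (84.0%, exact 95% Clopper-Pearson interval 81.6% to 86.3%). KO Tconv replicate 2 had 743 (77.1%, 74.3% to 79.7%) and replicate 3 had 799 (82.9%, 80.4% to 85.2%). KO Treg replicate 1 had a peak at 54 members (5.60%, 4.24% to 7.25%) and replicate 3 at 72 (7.47%, 5.89% to 9.31%). The means were 81.3% ± 3.73 in KO Tconv (SD, n = 3) and 6.54% ± 1.32 in KO Treg replicates 1 and 3 (SD, n = 2), and the groups did not overlap. Apart from these, KO Treg replicate 2 had a peak at 4 members (0.415%, 0.113% to 1.06%). Intervals cover counting error only.

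Over all 40457 regions, the share with a peak was 60.7% ± 0.782 in KO Tconv (SD, n = 3) and 61.2% ± 1.25 in KO Treg replicates 1 and 3 (SD, n = 2), and these ranges overlapped. The member share was 76.8 percentage points higher in KO Tconv than in all 3 KO Treg libraries (exact permutation p = 0.1, two-sided, 3 libraries in each group), and 74.8 points higher without KO Treg replicate 2 (exact permutation p = 0.2). These are the smallest p-values that 3 against 3 and 3 against 2 libraries allow, so neither could pass 0.05. Every KO Tconv library lay above every KO Treg library. The share in KO Treg was higher where an excluding WT Treg list was left out, which relaxes the rule. It was 10.6% without WT Treg replicate 1 (1112 regions), 14.8% without replicate 2 (1374 regions) and 8.73% without replicate 3 (1048 regions).

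**Figure D1:**
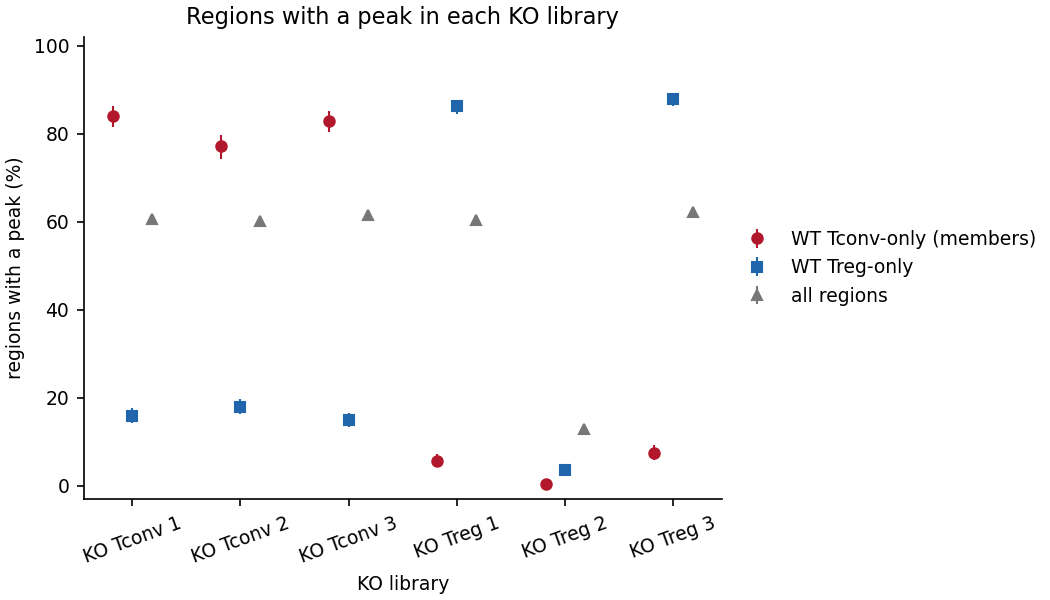
The share of regions with a peak (y axis, percent) is plotted for each KO library (x axis), for the 964 members, the 1879 WT Treg-only regions and all 40457 regions, with exact 95% intervals as bars. Members lie between 77.1% and 84.0% in the KO Tconv libraries and between 0.415% and 7.47% in the KO Treg libraries, while all regions lie near 61% in every library but KO Treg replicate 2.

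The mirror set, regions with a peak in all 3 WT Treg lists and no WT Tconv list, was larger, at 1879 regions. It was found in 86.2% and 87.8% in KO Treg replicates 1 and 3, and in 15.9%, 17.9% and 14.9% in KO Tconv replicates 1, 2 and 3. In the other cell type, the share was 16.2% ± 1.52 for the mirror set in KO Tconv (SD, n = 3) and 6.54% ± 1.32 for the members in KO Treg (SD, n = 2). The difference was 9.68 percentage points, with no overlap between libraries (exact permutation p = 0.2, two-sided, 3 against 2 libraries, the smallest possible). The excluding lists were unequal, with 25401, 27605 and 22883 peaks in WT Treg and 24019, 24546 and 21269 in WT Tconv. Without WT Treg replicate 2, the largest of them, 1374 regions met the remaining criteria, and their share in KO Treg was 14.8%. That value rests on 2 excluding lists and the mirror share on 3, so they are not like for like. In the cell type of origin the members' share was 5.66 points below that of the mirror set (exact permutation p = 0.2). As a contrast of the 2 sets, the mirror share was subtracted from the member share within each library. This gave 68.2, 59.2 and 68.0 points in KO Tconv and −80.6 and −80.3 in KO Treg replicates 1 and 3. KO Treg replicate 2, with few peaks in either set, gave −3.20, so the subtraction did not remove the effect of yield. The group difference was 119.8 points over all 6 libraries (exact permutation p = 0.1) and 145.6 without KO Treg replicate 2 (exact permutation p = 0.2). Benjamini-Hochberg adjusted p-values over these 6 comparisons were 0.2 each.

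Counted over lists, 607 members (63.0%) had a peak in all 3 KO Tconv lists, 207 in 2, 117 in 1 and 33 in none. Over all regions, 49.0% had a peak in all 3 KO Tconv lists, and over the 18361 regions with a peak in all 3 WT Tconv lists, 93.3% did. KO Tconv replicate 2 was the list most often missing. It alone lacked a peak at 95 members, and replicates 1 and 3 each alone lacked one at 56. The WT pattern as a whole, a peak in all 3 KO Tconv lists and in neither KO Treg replicate 1 nor 3, recurred at 537 members (55.7%), against 3.85% of all regions. In the mirror set, the corresponding pattern recurred at 1035 of 1879 regions (55.1%), against 5.59% of all regions. Where a peak had to cover 50% of a region, 40.5% of the members then defined kept the pattern.

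**Figure D2:**
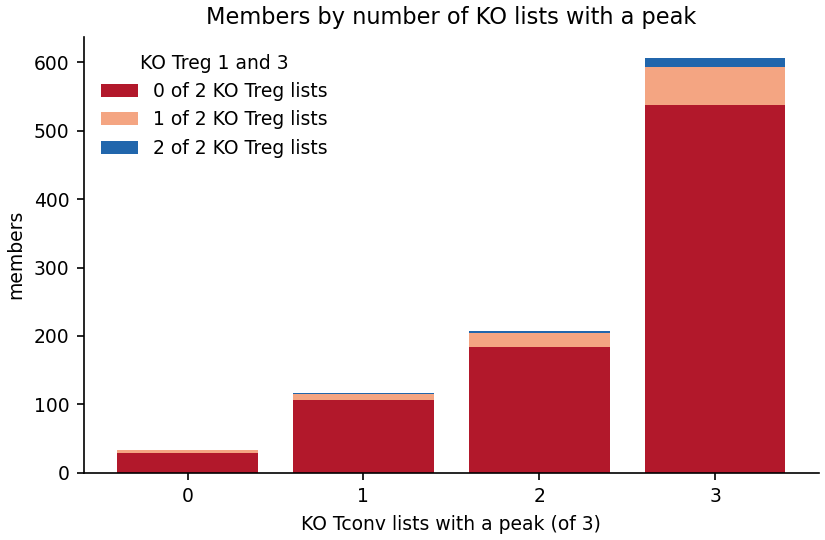
Bars count the members (y axis) by the number of KO Tconv lists with a peak (x axis, of 3) and are divided by the number of KO Treg lists with a peak (replicates 1 and 3). The tallest part is the 537 members with all 3 KO Tconv lists and no KO Treg list.

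Read from the KO side, 1556 regions had the pattern, and the 537 members among them were 34.5% of that list and 55.7% of the members. Of the others, 214 had a peak in all 3 WT Tconv lists and in 1 WT Treg list, and 174 had a peak in 2 WT Tconv lists and no WT Treg list, so each missed the rule by 1 list. A further 80 had a peak in all 6 WT lists, and 137 in all 3 WT Tconv lists and 2 WT Treg lists. The rest had a peak in at most 2 WT Tconv lists. Among them, 96 had a peak in 1 WT Tconv list and no WT Treg list, and 39 had no WT peak.

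The share of members with a peak was higher in each stronger class in all 3 KO Tconv libraries, and showed no such order in KO Treg. The members were split into 4 classes of 241 by mean WT Tconv percentile, with bounds near 22.5, 33.2 and 46.3. The share with a peak in KO Tconv was 66.0% ± 4.56 in the weakest class, 77.0% ± 3.14 and 87.1% ± 6.68 in the middle classes and 95.2% ± 2.13 in the strongest (SD, n = 3 each). The strongest class exceeded the weakest by 31.5, 31.95 and 24.1 percentage points in replicates 1, 2 and 3, a mean of 29.2 ± 4.44 (SD, n = 3). In KO Treg replicates 1 and 3 the means from weakest to strongest were 6.22%, 5.39%, 8.09% and 6.43%. Replicate 1 had 6.22%, 3.73%, 6.22% and 6.22%, and replicate 3 had 6.22%, 7.05%, 9.96% and 6.64%. These shares rest on few members in each class. The WT pattern recurred at 34.4%, 48.1%, 61.4% and 78.8% of the classes, in the same order.

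**Figure D3:**
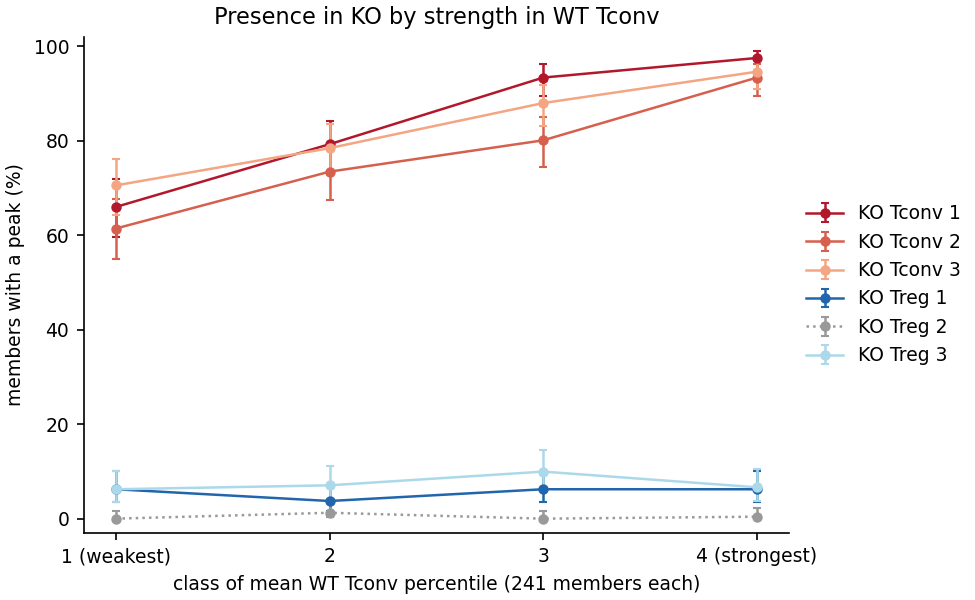
The share of members with a peak (y axis, percent) is drawn for each KO library over 4 classes of mean WT Tconv percentile (x axis, 241 members each), with exact 95% intervals as bars. The 3 KO Tconv lines climb from between 61.4% and 70.5% to between 93.4% and 97.5%, and the KO Treg lines stay at or below 9.96%.

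Regions shared with Treg, split at the same 3 bounds of WT Tconv percentile, are given for comparison. The outer classes were open-ended, and the strongest held 11265 of the 15639 regions of all 6 WT lists. Strength was therefore matched only roughly there. Among regions of all 6 WT lists in the weakest class, 92.2% ± 1.31 had a KO Tconv peak, against 66.0% ± 4.56 of members (SD, n = 3 each). In the strongest class the shares were 99.8% ± 0.0642 and 95.2% ± 2.13. The libraries' ranges did not overlap in any of the 4 classes. Regions with a peak in all 3 WT Tconv lists and in 1 WT Treg list lay between, at 76.0% ± 1.88 in the weakest class and 96.2% ± 1.67 in the strongest. These are the same 3 KO libraries in each set, and the difference was not tested.

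How often a WT Tconv library that took no part in the choice had a peak depended on which library it was. For this, regions were chosen from 2 WT Tconv lists and no WT Treg list, and classed by strength in those 2 lists. In the weakest class the WT Tconv list left out had a peak at 53.6% ± 15.9 (SD, n = 3 choices, which share lists), ranging from 36.0% to 67.0%. The KO Tconv libraries ranged from 43.9% to 66.7% over the same regions. In the strongest class the list left out averaged 93.8% ± 6.75 and ranged from 86.2% to 98.9%, and KO Tconv ranged from 84.1% to 96.1%. With WT Tconv replicate 1 or 2 left out, that list lay above all 3 KO Tconv libraries in 7 of 8 classes, and over all classes it had a peak at 79.1% (replicate 1) against 77.8%, 69.7% and 75.6% in KO Tconv, and at 84.7% (replicate 2) against 78.7%, 71.7% and 78.3%. With replicate 3, the smallest WT list, left out, it lay below all 3 in 3 of 4 classes, at 61.5% over all classes against 71.7%, 64.8% and 73.3%. Without that choice the ranges still overlapped in the weakest class, at 57.7% and 67.0% against 49.8% to 66.7% in KO Tconv. In the strongest class they did not, at 96.4% and 98.9% against 89.8% to 96.1%.

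In KO Tconv the median percentile of the 743 to 810 members with a peak was 36.3, 30.2 and 36.4 in KO Tconv replicates 1, 2 and 3, a mean of 34.3 ± 3.59 (SD, n = 3), against 33.8 ± 1.48 over all 964 in WT Tconv (SD, n = 3). For the 607 members with a peak in all 6 Tconv lists, the KO mean minus the WT mean had a median of −1.51 percentile points (interquartile range −9.41 to 5.70). The 15220 regions of all 6 WT and all 3 KO Tconv lists had a median of 1.97 points (interquartile range −2.25 to 7.99). The median SD between replicates of one member was 11.5 points in WT and 11.3 in KO. In the weakest class the median shift was 6.79 and in the strongest −5.86. Classes cut on WT values shift this way by construction. Across members, Spearman's rho between the percentiles of 2 lists was 0.488 to 0.585 within WT Tconv, 0.515 to 0.561 within KO Tconv and 0.495 to 0.579 between genotypes (663 to 964 regions per pair). These regions are not independent replicates, and the lists share the peak caller and the choice of members.

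**Figure D4:**
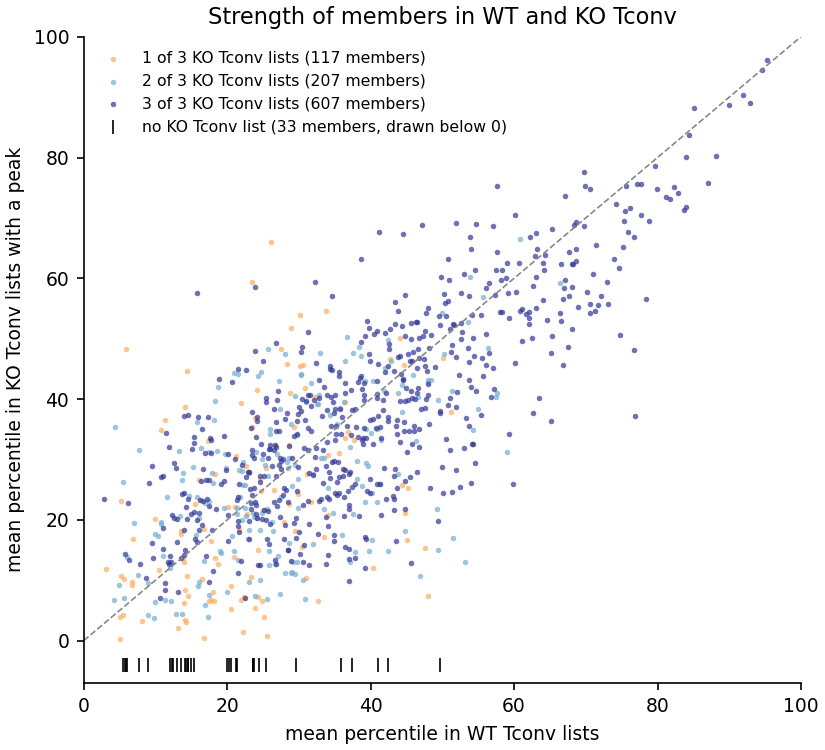
Each point is a member, placed by its mean percentile in the WT Tconv lists (x axis) and in the KO Tconv lists that had a peak (y axis), coloured by the number of such lists, with the diagonal dashed. The 33 members without a KO Tconv peak are ticks below 0 and reach a WT percentile of 49.7 at most.

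At 24 of the 607 members (3.95%) all 3 KO percentiles lay above all 3 WT ones, against 10.2% of the 17138 regions with a peak in all 6 Tconv lists. At 39 (6.43%) all 3 lay below, against 3.67%. The widest gaps among these, picked after their values were seen, were on chromosome 5 (130030270 to 130031000; WT mean 15.8, KO mean 57.6) and chromosome 9 (48258210 to 48258737; WT mean 76.9, KO mean 37.2).

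Peaks at members were wider in KO than in WT Tconv lists, as were peaks in general. The bases covered at a member had medians of 397, 398 and 438 bp in KO Tconv and 363.5, 369 and 313 bp in WT Tconv, in order of replicate, with no overlap. The KO medians cover only the 743 to 810 members with a peak in that list, and the WT medians all 964. The mean of all peaks' median widths was 546 ± 7.0 bp in KO Tconv and 511 ± 16.8 bp in WT Tconv (SD, n = 3 each). Member by member, the ratio of KO to WT bases had a median of 1.07 over the 607 members with all 6 peaks, and 1.08 over the 15220 regions of all 6 WT and all 3 KO Tconv lists. Members absent from KO Tconv were narrow, with a median region width of 397 bp for those in no KO Tconv list and 695 bp for those in all 3. Region width grows with the number of peaks that were merged.

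The strongest members were present in every KO Tconv library and in no KO Treg library. This held for all 10 members with the highest mean WT Tconv percentile. The first lay on chromosome 16 (31181885 to 31182254), with percentiles of 96.9, 92.6 and 96.4 in WT Tconv replicates 1 to 3 and 95.7, 94.7 and 98.1 in KO Tconv replicates 1 to 3. Its fold over background in the authors' lists was 12.8 to 15.7 in KO Tconv. This narrow region ranked above a percentile of 92 in all 6 Tconv lists.

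On chromosome 2 (83856091 to 83857122), percentiles were 94.0, 95.4 and 94.3 in WT Tconv and 93.8, 96.2 and 93.4 in KO Tconv. Also among the 10, 2 further regions lay on chromosome 2, from 117833664 to 117834183 (WT mean 92.8, KO mean 89.0) and from 84422256 to 84423069 (90.0 and 88.8). Another, on chromosome 15 (3259462 to 3260481), had means of 91.9 and 90.3. WT and KO values overlapped at each of these regions.

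The others had WT means of 83.9 to 88.1. They lay on chromosome 6 (28301002 to 28301921), chromosome 9 (31078679 to 31079343), chromosome 4 (86367529 to 86368260), chromosome 18 (32702722 to 32703246) and chromosome 5 (89551855 to 89552700). Of the 10, the chromosome 9 region was the one whose KO percentiles (83.7, 65.5 and 78.1) all lay below its WT ones (86.7, 84.3 and 89.9).

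The 33 members without a KO Tconv peak (3.42%) were weak in WT, with a median WT Tconv percentile of 15.3 against 39.1 for the 607 found in all 3 KO Tconv lists. Of all 18361 regions with a peak in all 3 WT Tconv lists, 0.338% had no KO Tconv peak. The 33 fell into the 4 classes as 22, 6, 4 and 1, from weakest to strongest. The count is easier to reach with fewer lists, and the share was 5.91% to 8.81% without single KO Tconv libraries. It was 5.46% without WT Tconv replicate 2, 6.66% without replicate 1 and 9.76% without replicate 3. With equal numbers of peaks per list it was 5.94%, and with 50% coverage 5.76%.

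The strongest of the 33 was on chromosome 17 (66307057 to 66307267), with percentiles of 64.1, 42.0 and 43.0 in WT Tconv replicates 1 to 3 and no peak in any KO list. Next came chromosome 13 (73897401 to 73897895; mean 42.4 ± 6.44, SD, n = 3) and chromosome 2 (154836992 to 154837313; 41.0 ± 7.18). Chromosome 1 (58863600 to 58863935; 37.4 ± 1.23) had a peak in KO Treg replicate 3, at a percentile of 8.81. Chromosome 18 (56533678 to 56533880) had a mean of 35.9 ± 10.2. These 5 regions were 203 to 495 bp wide, all under the members' median width.

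Members with a KO Treg peak were few, and the peaks there were weak. In all, 88 members had a peak in 1 of KO Treg replicates 1 and 3 and 19 (1.97%) in both, against 52.9% of all regions with a peak in both. The peaks had a median percentile of 13.4 in KO Treg replicate 1 (range 0.363 to 46.6) and 12.6 in replicate 3 (range 0.667 to 58.1). The same members had median KO Tconv percentiles of 36.9 and 33.7. The KO Treg percentile was the lower one at 42 of 52 members in replicate 1 and at 59 of 70 in replicate 3. Median bases covered were 239 and 259 bp, against 397 to 438 bp for members in KO Tconv. Among the 19 members with both peaks, 14 had a peak in all 3 KO Tconv lists, and at 11 both KO Treg percentiles lay below every KO Tconv one. The rule asked for WT Tconv peaks and no WT Treg peak, so lower percentiles in KO Treg are not independent of the choice. The same counts over all regions are not given here.

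The strongest of the 19 lay on chromosome 12 (116002165 to 116003110). Its percentiles were 24.997 and 20.3 in KO Treg replicates 1 and 3, and 56.3, 67.7 and 81.8 in KO Tconv replicates 1 to 3. On chromosome 10 (67447283 to 67447904) they were 20.1 and 57.9 in KO Treg and 61.8, 63.2 and 68.3 in KO Tconv. Also on chromosome 10, from 93011858 to 93012159, KO Treg had 46.6 and 47.7, close to the 51.9 and 61.9 of KO Tconv replicates 1 and 2, and KO Tconv replicate 3 had no peak. The next were on chromosome 4 (34376173 to 34377360; 13.7 and 16.0 in KO Treg) and chromosome 19 (32260968 to 32261604; 12.2 and 4.94). At all 5 regions, both KO Treg values lay below every KO Tconv value.

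The low-yield KO Treg replicate 2 had a peak at 4 members, named here after their values were seen. They lay on chromosome 10 (125939059 to 125939820), chromosome 18 (82390371 to 82390819), chromosome 7 (79405533 to 79406510) and chromosome Y (2604262 to 2604834). The peaks on chromosomes 18 and Y ranked at percentiles of 99.4 and 98.2 of that short list, against KO Tconv means of 21.8 and 58.5. Of the 4, the chromosome Y region also had a peak in KO Treg replicate 3 (58.1), and none had one in replicate 1.

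Members were scattered over the genome, with some local groups. Chained where the next member lay within 100 kb, 657 members stood alone, and the other 307 formed 105 pairs, 21 groups of 3, 6 groups of 4 and 1 group of 10. The WT pattern recurred in KO at 64.8% of the grouped members and 51.4% of the lone ones, with median WT percentiles of 34.6 and 32.6. The nearest other member was a median of 295160 bp away, and the nearest region of all 6 WT lists 21274 bp away, within 10 kb for 30.3% of members. In the mirror set, with nearly 2 times as many regions, the nearest other Treg-only region was a median of 133380 bp away. It lay within 100 kb for 44.7% of that set, and another member lay within 100 kb for 31.9% of members. Whether members group more than other regions of that number was not tested. Chromosome 6 held 8.09% of members and 5.65% of the regions with a peak in all 3 WT Tconv lists. Chromosome X held 1.76% and 2.85%.

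The group of 10 spanned 271 kb of chromosome 5, from 89357462 to 89627989, and had no peak in any of the 5 full-size Treg lists. All 10 members had a peak in each KO Tconv list, 30 of 30. Its strongest member was the region from 89551855 named among the 10 strongest, with percentiles of 77.3, 85.3 and 89.1 in WT Tconv and 72.8, 87.1 and 80.3 in KO Tconv, replicates 1 to 3. A pair of members nearer the start of the group, from 89464925 to 89465988 and from 89473490 to 89474453, had KO Tconv percentiles of 75.9, 66.7 and 81.8, and of 78.7, 69.2 and 77.7. Values in KO and WT overlapped at these 3 members.

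The members from 89480371 to 89481094 and from 89519014 to 89519779 had KO means of 67.5 ± 11.6 and 57.7 ± 13.7 (SD, n = 3 each). The next member after the strongest, from 89583297 to 89583895 had lower percentiles in KO (12.6, 31.8 and 31.6) than in WT (53.3, 53.2 and 38.3), without overlap. The last, from 89627496 to 89627989, had 34.7, 47.9 and 60.1 in KO against 50.3, 72.5 and 72.7 in WT. The first 3 members, starting at 89357462, 89381922 and 89417906, were weaker, with KO means of 31.6, 28.8 and 23.5. The one starting at 89417906 had higher percentiles in KO (28.7, 21.6 and 20.3) than in WT (19.0, 16.7 and 8.03), without overlap. Of the 15 regions in the stretch, 5 were not members. One of these, from 89523501 to 89523829, had the stretch's single Treg peak, in KO Treg replicate 2.

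**Figure D5:**
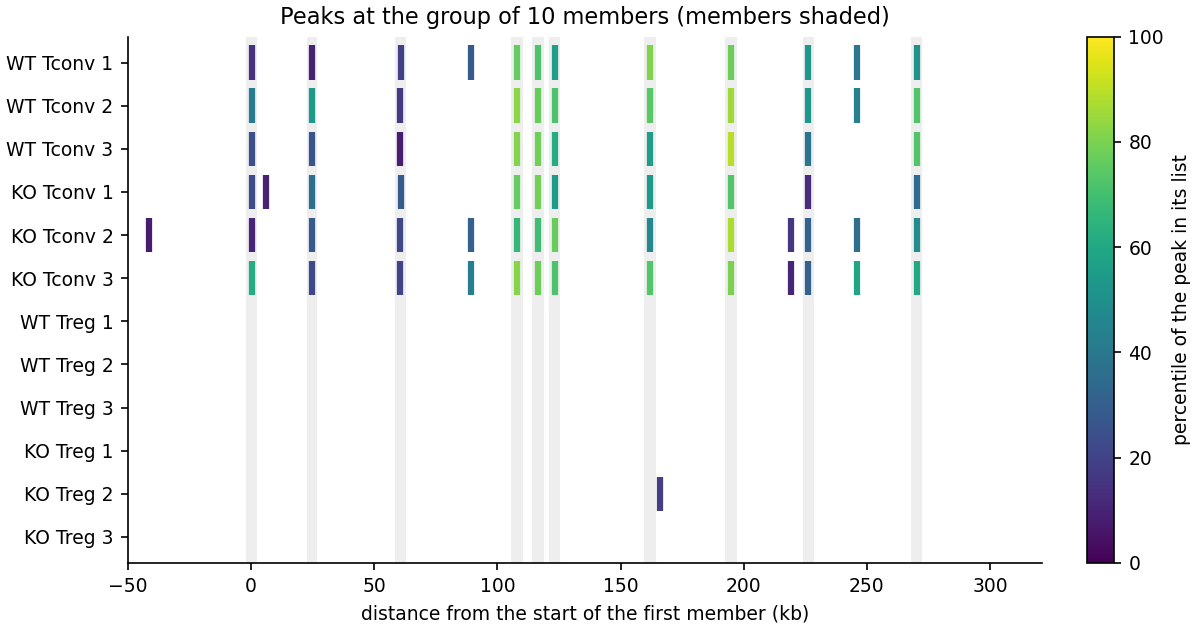
Peaks in each of the 12 lists (rows) are drawn by distance from the start of the first member of the chromosome 5 group (x axis, kb; bars mark peak centres, not widths) and coloured by percentile in their own list, with the 10 members shaded. All 6 Tconv rows have a peak at each shaded position, and the Treg rows hold 1 peak, in KO Treg replicate 2 outside the members.

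Among the 6 groups of 4, the shortest lay on chromosome 16 (84971869 to 84996261) and spanned 24.4 kb. Its 4 members had 12 of 12 possible KO Tconv peaks and no Treg peak of either genotype fell in the stretch. The member from 84982560 to 84983486 was strongest, with 78.7, 75.3 and 69.9 in WT Tconv and 71.6, 46.8 and 66.8 in KO Tconv. The members from 84971869 to 84972882 and from 84995564 to 84996261 had KO means of 56.2 ± 14.8 and 46.9 ± 14.3, and that from 84994310 to 84994871 one of 13.1 ± 8.24 (SD, n = 3 each).

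On chromosome 7 (79405533 to 79453247), over 47.7 kb, 9 of 12 KO Tconv peaks were present. There the members stood among regions that Treg shared. Of the 7 regions in the stretch, 1 (79450871 to 79452025) had a peak in all 6 WT lists, and another (79414762 to 79415427) in all 3 WT Treg and 2 WT Tconv lists. The first member, from 79405533 to 79406510, had KO Tconv percentiles of 58.6, 48.0 and 56.6. The last, from 79452844 to 79453247, had a peak in KO Tconv replicate 1 alone, at 33.6. The other groups of 4 lay on chromosome 11 (53876275 to 53969799), with 10 of 12 KO Tconv peaks, and on chromosome 6 (67289423 to 67386314, 129525307 to 129631048, and 66262440 to 66444507), with 12 of 12 each. In these, a single member, in the last group, had a peak in KO Treg replicate 1 or 3.

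The 3 widest members lay on chromosome 4 (107753519 to 107755698), chromosome 10 (87665407 to 87667368) and chromosome 12 (29492644 to 29494601), at 2180, 1962 and 1958 bp. All 3 had a peak in each KO Tconv list and none in KO Treg. Their KO Tconv means were modest, at percentiles of 25.9 ± 15.7, 17.7 ± 6.52 and 30.3 ± 8.34 (SD, n = 3 each).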

How the data were processed

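Peak lists of 12 ATAC-seq libraries were used, 1 per library. Per the submitters' processing notes the build is NCBIM37 and the tools, with no order, include MACS2, Bowtie2, Trim Galore 0.4.4, DESeq2 and DiffBind. Control input, filters and cut-site shifting were not given in the sources used here. Each deposited peak carries a −log10 p, a −log10 q, a score and a fold ratio over background from the authors' peak caller. These are the peak's own values and were used only within a list. The score was not used.

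Presence was at least 1 bp of overlap. Where a list had several peaks in a region, the highest percentile and fold and the summed bases were taken. Groups came from sample titles. The regions named were the 10 strongest, the 5 strongest without a KO Tconv peak or with both KO Treg peaks, the 3 largest groups and the 3 widest. Members, lists and rules were chosen with earlier results of these data known. Permutation tests enumerated every labelling of libraries. The functions were tested on simulated lists. Gene and promoter tables of another build, GRCm38.p6, were not used, and the planned gene lists, markers and motifs were not run. Over regions, the deviations of same-numbered Tconv and Treg libraries had r from −0.0283 to 0.0608, against −0.0425 to 0.0300 for other numbers. In WT the same-numbered values were all positive (0.0283, 0.0152 and 0.0608). These values cannot show whether same-numbered libraries came from a single animal. The main tests did not take numbers as pairs. Python 3.11.15, numpy 2.4.6, pandas 2.3.3, scipy 1.17.1 and matplotlib 3.10.9 were used.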

Additional observations from a re-analysis of the deposited data

How the results depend on the processing

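Of 164 alternative values of 9 results, 40 were counted as moved and 124 were not. Moving meant going beyond the spread between replicates, the exact interval or, for the number of members, a fixed factor. The KO Tconv minus KO Treg differences were instead judged by sign and by whether p crossed 0.05. With so few libraries p could not fall below 0.05, so all their values stand among the 124, whatever their size. Both KO Tconv minus KO Treg differences stayed positive in each alternative run. Stricter peaks (−log10 q of at least 5) gave a member share of 77.3% in KO Tconv, the WT pattern in KO at 48.7%, no KO Tconv peak at 5.0% and a strongest minus weakest class difference of 34.4 points. Equal numbers of top peaks (21269, with KO Treg replicate 2 whole) gave 75.6%, 46.9%, 5.94% and 36.6 points, with a median KO Tconv percentile of 30.1. Coverage of 50% gave 73.0%, 40.5%, 5.76%, 38.0 points and 45.9, and 8.02% in KO Treg. With these 3 settings 504, 743 and 423 of the 964 members overlapped a region that still met the rule. With boundaries from WT lists alone 960 did. Leaving out each library gave 964 to 1568 members (most without WT Tconv replicate 3). It gave shares of 69.9% to 83.5% in KO Tconv and 5.70% to 14.8% in KO Treg, and differences of 64.7 to 79.0 points, or 104.3 to 145.6 with the mirror share subtracted. The pattern ranged from 41.1% to 64.1%, members without a KO Tconv peak from 3.13% to 9.76%, the median percentile from 29.9 to 36.4 and the class difference from 26.5 to 38.3 points. With the replicate number as a block the differences were 76.8 and 119.8 points (exact sign-flip permutation p = 0.25 each, the smallest 3 pairs allow). The cause of these changes was not tested, and read depth is unknown.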
